A study of Mus musculus with 18 samples.

Results

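Clusterin (Clu) and 9 annexins (Anxa1 to Anxa8 and Anxa11) were described in terminal bronchiolar epithelial cells of mouse lung before and after naphthalene, a toxicant that injures club cells of the small airways. These 10 genes were picked by name, with earlier results of these data known. Their rows were found through the platform's table of probe sets and gene symbols. All 10 were found, among 19938 genes with a probe set of 1 symbol. For Anxa6, which has 2 such probe sets, the one with the higher mean over all 18 arrays was used.

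The study held 6 groups of 3 arrays: Cebpa d/d mice at 0, 3 and 72 hr after naphthalene, and control mice at 0, 3 and 72 hr. Cebpa encodes C/EBP alpha, a transcription factor of maturing lung epithelium. Both genotypes were on mixed FVB/N and C57BL/6 and received naphthalene, with the 0 hr arrays as the starting point. Ages, what the d/d allele removes or any promoter that drives it, and whether each array came from a separate animal were not given in the labels, so the p-values reflect spread among these arrays only, which may be partly technical.

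The arrays were checked against their labels before the members were read. The Cebpa probe set had log2 levels of 7.83 to 9.07 in the 9 Cebpa d/d arrays, and of 9.69 to 10.52 in 8 of the 9 control arrays. The library labelled control 0 hr replicate 1 had 7.89 and so went against its label, which touches every direction below that involves control at 0 hr. It was the highest of its group for 9 of the 10 members. Without that array, 6 of 10 members still rose at 72 hr in control, the same number as with it. With it 7.15% of all genes passed, and the share without it is not given here. Club cell markers were high in all groups: the mean of 5 markers, Scgb1a1 and Cyp2f2 among them, lay between 11.56 and 12.35. In control it was 12.20 to 12.35 at 0 hr and 11.78 to 11.82 at 72 hr. In Cebpa d/d it was 12.06 to 12.22 at 0 hr and 11.56 to 12.18 at 72 hr. At an adjusted p under 0.05 by limma, 2 of the 5 were lower at 72 hr in control and 0 in Cebpa d/d, where 7.15% and 4.8% of all genes passed. The part of this change in the levels of the members was not tested. Markers of type 2 cells (10.23 to 11.17) and smooth muscle (9.89 to 10.78) were also present, so other lung cells contributed RNA. Heart muscle markers were high in Cebpa d/d at 0 hr, as given below, which touches every comparison that involves that group. The levels of Xist and Eif2s3y were those of females in all 6 arrays at 72 hr and, at 0 and 3 hr, in 1 array of every group.

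Annexins bind acidic phospholipids of membranes when calcium rises. In many cells they gather at torn plasma membrane and help to seal it, and several of them pair with small calcium-binding S100 proteins. Anxa1 is also secreted and limits the entry of neutrophils through formyl peptide receptors, while Anxa2 with S100a10 holds plasminogen activators at the cell surface. Clusterin is a secreted chaperone that holds misfolded proteins in solution, is taken up by receptors of the LDL receptor family, and is often made by stressed or regenerating epithelium.

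The 250 bases before the annotated start of Anxa1 and Anxa2 are printed below. Both annexins lay higher at 3 hr than at 0 hr in every array of both genotypes. The choice was also made because a window holds a C/EBP motif, the site type that Cebpa binds. Anxa7 lay higher at 3 hr in the same way but is not printed, and its windows held no match. Nor is Anxa4 printed, which had a C/EBP match in one entry. The choice therefore does not show how often members that were higher at 3 hr hold a motif. Both printed windows are from RefSeq, assembly GRCm38.p6. They are read 5′ to 3′ on the strand of the gene, and capitals mark a motif match. The Anxa1 window lies at chr19:20390672-20390921 on the minus strand, and the Anxa2 window at chr9:69453433-69453682 on the plus strand.
Anxa1: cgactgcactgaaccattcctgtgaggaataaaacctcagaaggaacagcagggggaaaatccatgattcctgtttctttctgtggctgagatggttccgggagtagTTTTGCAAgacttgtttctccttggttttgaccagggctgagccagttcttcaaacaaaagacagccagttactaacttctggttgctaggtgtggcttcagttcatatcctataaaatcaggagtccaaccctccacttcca
Anxa2: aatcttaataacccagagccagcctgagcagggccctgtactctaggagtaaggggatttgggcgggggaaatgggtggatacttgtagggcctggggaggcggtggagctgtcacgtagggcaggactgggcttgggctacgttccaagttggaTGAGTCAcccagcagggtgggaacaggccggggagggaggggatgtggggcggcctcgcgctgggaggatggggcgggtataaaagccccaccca
In Anxa1 the capitals mark a match to the C/EBP motif TTGCNNAA, read on the opposite strand, 143 to 136 bases before the start. In Anxa2 they mark a match to the AP-1 motif TGANTCA, 95 to 89 bases before it. These are descriptions of the letters and not sites shown to be bound.

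Of the members, 7 had an entry in the promoter table, with 9 entries in all; Clu, Anxa3 and Anxa6 had none. Both strands were searched for 4 motifs. Over 32851 promoter windows of the same length, 9.56% held the C/EBP motif, 6.75% the AP-1 motif, 10.2% the antioxidant response motif TGACNNNGC and 6.69% the heat shock motif GAANNTTC. The AP-1 and antioxidant response motifs can overlap. Anxa4, with 2 entries, had an antioxidant response match in one and a C/EBP match in the other, and Anxa11 had a heat shock match. The windows of Anxa5, Anxa7 and Anxa8 held no match to these letters.

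Clu was the member with the widest range. Its log2 levels at 0, 3 and 72 hr in Cebpa d/d arrays were 9.95, 9.44 and 9.88, then 9.48, 9.96 and 9.58, and then 10.60, 11.88 and 12.15. In control arrays they were 9.37, 9.22 and 9.24, then 9.31, 10.07 and 10.04, and then 11.97, 11.89 and 11.88. Every array at 72 hr lay above every array at 0 and 3 hr in both genotypes, and the lowest of them was Cebpa d/d 72 hr replicate 1.

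From 0 to 72 hr Clu rose 3.45-fold in Cebpa d/d, a log2 difference of 1.79 ± 0.29 (SE; limma adjusted p = 0.00163). In control it rose 6.22-fold, by 2.64 ± 0.29 (limma adjusted p = 0.000116). A gene was said to have risen, fallen or passed at a limma p under 0.05 after Benjamini-Hochberg adjustment over all 19938 genes, with 3 arrays per group. Set against 3 hr, the rise was 1.87 in Cebpa d/d (limma adjusted p = 0.000864) and 2.11 in control (limma adjusted p = 0.000183). At 3 hr the change from 0 hr was -0.08 ± 0.29 in Cebpa d/d and 0.53 ± 0.29 in control, and neither passed (limma adjusted p = 0.931 and 0.31).

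The 4 increases of Clu passed under all alternatives of the analysis, including a fit with sex as a covariate. In order of mean level the groups ran from control at 0 hr (9.28) through Cebpa d/d at 3 hr (9.67), Cebpa d/d at 0 hr (9.76) and control at 3 hr (9.81) to Cebpa d/d at 72 hr (11.54) and control at 72 hr (11.91). The middle 3 overlapped each other in their arrays, and so did both groups at 72 hr. In whole tissue or mixed cells, a change in the number of cells of a type and a change in RNA per cell cannot be told apart, which holds for all levels given here.

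**Figure D1:**
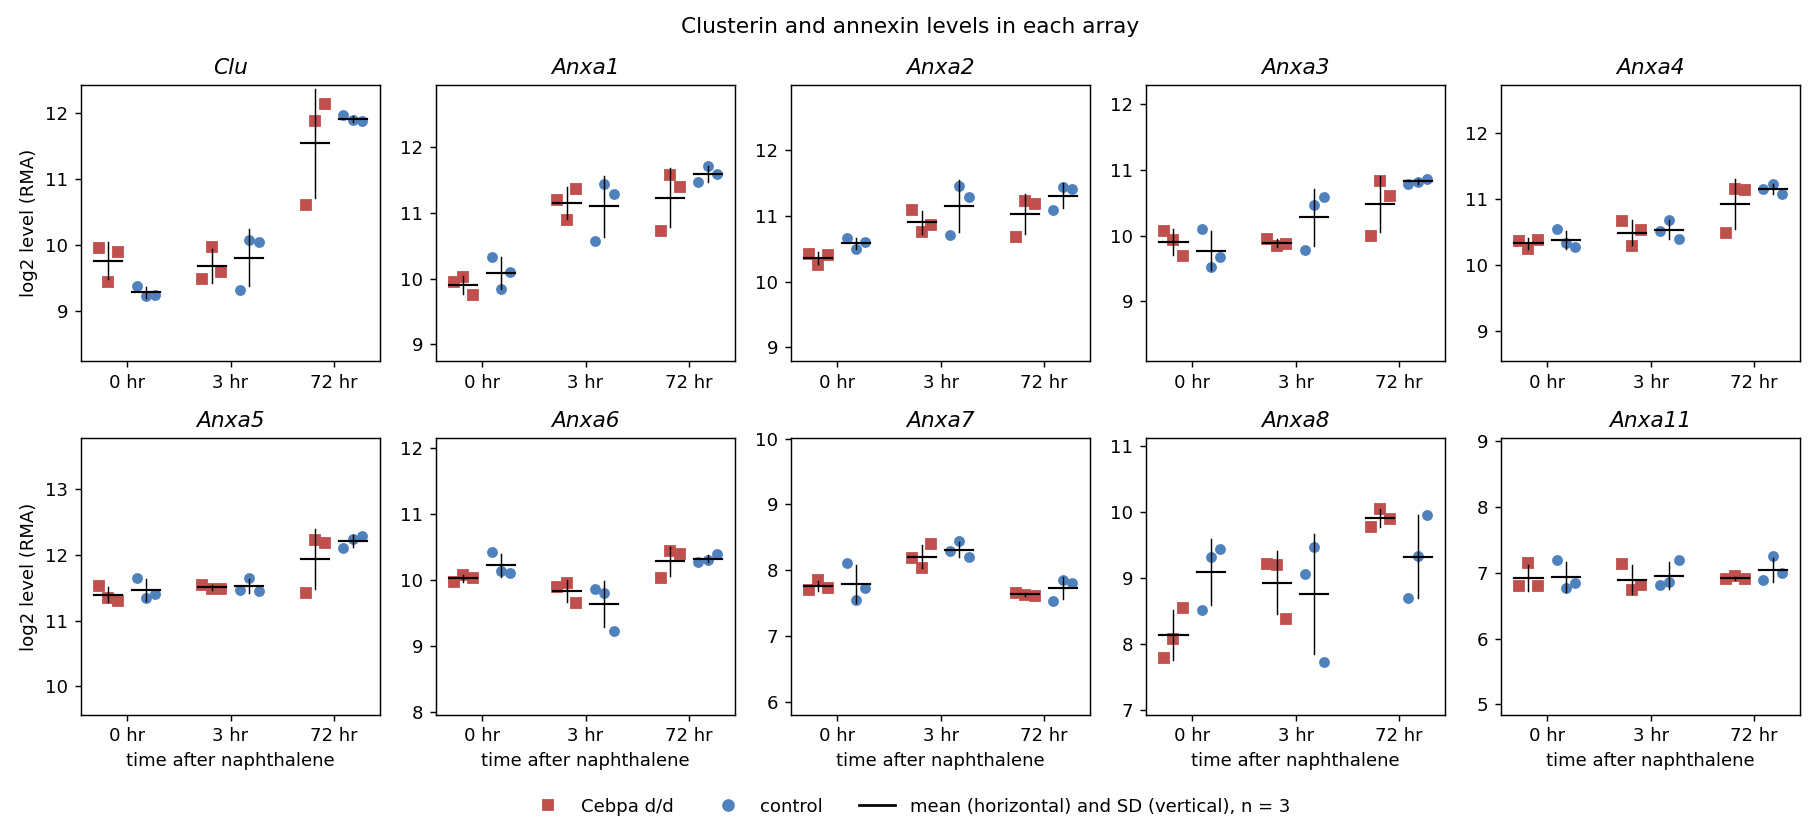
Log2 level (vertical axis) of each member in each of the 18 arrays by time after naphthalene, with squares for Cebpa d/d, circles for control, and the mean and SD of 3 arrays. Clu at 72 hr lies between 10.60 and 12.15 in Cebpa d/d and between 11.88 and 11.97 in control. Cebpa d/d 72 hr replicate 1 is the lowest of its group for 8 of the 10 members, and so is control 72 hr replicate 1 of its group.

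Anxa1, which limits neutrophil entry, had risen by 3 hr in both genotypes. Its levels in Cebpa d/d arrays were 9.94, 10.02 and 9.75 at 0 hr, 11.19, 10.88 and 11.37 at 3 hr, and 10.72, 11.57 and 11.39 at 72 hr. In control arrays they were 10.33, 9.84 and 10.09 at 0 hr, 10.56, 11.43 and 11.29 at 3 hr, and 11.46, 11.71 and 11.58 at 72 hr. All arrays at 3 and 72 hr lay above all arrays at 0 hr of the same genotype.

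At 3 hr Anxa1 was 2.37-fold higher than at 0 hr in Cebpa d/d (1.24 ± 0.22; limma adjusted p = 0.00358). In control it was 2.01-fold higher (1.01 ± 0.22; limma adjusted p = 0.0219). The control call was lost without control 0 hr replicate 2 (0.89), control 0 hr replicate 3 (1.01), control 3 hr replicate 2 (0.84) or control 3 hr replicate 3 (0.91), and with only the 2 groups in the fit, where limma gave adjusted p = 0.137. At 72 hr Anxa1 remained above 0 hr, by 1.33 ± 0.22 in Cebpa d/d (limma adjusted p = 0.00201) and by 1.501 ± 0.22 in control (limma adjusted p = 0.000984). From 3 to 72 hr it differed by 0.08 in Cebpa d/d and by 0.49 in control, and neither difference passed (limma adjusted p = 0.904 and 0.127).

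Anxa2, the surface partner of S100a10, had smaller differences from 0 hr than Anxa1. In Cebpa d/d arrays its levels were 10.42, 10.26 and 10.40 at 0 hr, 11.09, 10.75 and 10.86 at 3 hr, and 10.67, 11.23 and 11.19 at 72 hr. In control arrays they were 10.66, 10.50 and 10.60 at 0 hr, 10.70, 11.45 and 11.29 at 3 hr, and 11.09, 11.43 and 11.40 at 72 hr. The 0 hr arrays lay below the later ones in both genotypes, by little in replicate 1 of Cebpa d/d at 72 hr and replicate 1 of control at 3 hr.

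At 72 hr Anxa2 had risen 1.59-fold in Cebpa d/d (0.67 ± 0.17; limma adjusted p = 0.0333) and 1.65-fold in control (0.72 ± 0.17; limma adjusted p = 0.0191). At 3 hr the differences were 0.54 ± 0.17 in Cebpa d/d and 0.56 ± 0.17 in control, and did not pass (limma adjusted p = 0.096 and 0.0817). The 3 hr difference passed in both genotypes without control 3 hr replicate 1 (limma adjusted p = 0.0357 in Cebpa d/d and 0.00753 in control). Both 72 hr calls were lost with sex as a covariate, at 0.62 in Cebpa d/d and 0.67 in control (limma adjusted p = 0.126 and 0.0757). The Cebpa d/d call was lost as well with only the 2 groups in the fit (limma adjusted p = 0.0506). Both were also lost when single arrays were left out: in Cebpa d/d any of the 0 hr arrays or 72 hr replicate 2 or 3 (0.57 to 0.70), and in control 0 hr replicate 2 or 3 or 72 hr replicate 2 or 3 (0.66 to 0.73).

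Anxa3, Anxa4 and Anxa5, phospholipid-binding proteins that also inhibit phospholipase A2 or coagulation in test systems, passed against 0 hr at 72 hr in control and at 3 hr in neither genotype. Anxa5 is the annexin used as a probe for phosphatidylserine on dying cells. In Cebpa d/d arrays at 0, 3 and 72 hr Anxa5 had levels of 11.52, 11.35 and 11.30, then 11.55, 11.48 and 11.48, and then 11.41, 12.22 and 12.18. In control arrays it had 11.65, 11.34 and 11.40, then 11.47, 11.65 and 11.45, and then 12.10, 12.24 and 12.28. The control 72 hr arrays lay above all earlier arrays, whereas in Cebpa d/d replicate 1 at 72 hr stayed among them and replicates 2 and 3 did not.

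Anxa5 passed at 72 hr in control (0.74 ± 0.16, or 1.67-fold; limma adjusted p = 0.0095), while the difference in Cebpa d/d was 0.55 ± 0.16 (limma adjusted p = 0.0607). Without Cebpa d/d 72 hr replicate 1 the Cebpa d/d difference was 0.81 and passed (limma adjusted p = 0.000217). Set against 3 hr, Anxa5 was higher in control by 0.68 (limma adjusted p = 0.0074), and the difference in Cebpa d/d was 0.44 (limma adjusted p = 0.108).

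Anxa4, which binds membranes of secretory epithelium, had levels in Cebpa d/d arrays of 10.37, 10.24 and 10.37 at 0 hr, 10.66, 10.29 and 10.53 at 3 hr, and 10.48, 11.15 and 11.14 at 72 hr. In control arrays it had 10.54, 10.34 and 10.27 at 0 hr, 10.52, 10.68 and 10.40 at 3 hr, and 11.15, 11.23 and 11.08 at 72 hr. Again 1 array of Cebpa d/d at 72 hr lay apart from its mates, and the control arrays at 72 hr stood clear of the earlier ones. The 72 hr rise was 0.60 ± 0.15 in Cebpa d/d (limma adjusted p = 0.0279) and 0.77 ± 0.15 in control (limma adjusted p = 0.00526). The Cebpa d/d call was lost with sex as a covariate (0.63; limma adjusted p = 0.0662), with only the 2 groups in the fit (limma adjusted p = 0.113) and without any array of that genotype at 0 hr or replicate 2 or 3 at 72 hr (0.48 to 0.62). Without replicate 1 at 72 hr it was 0.82 (limma adjusted p = 0.000526). From 3 to 72 hr the control difference of 0.62 passed (limma adjusted p = 0.00903), and that in Cebpa d/d was 0.43 (limma adjusted p = 0.0905).

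Anxa3 had levels in Cebpa d/d arrays of 10.07, 9.93 and 9.69 at 0 hr, 9.95, 9.84 and 9.87 at 3 hr, and 9.9995, 10.83 and 10.60 at 72 hr. In control arrays it had 10.10, 9.53 and 9.68 at 0 hr, 9.77, 10.46 and 10.59 at 3 hr, and 10.79, 10.82 and 10.86 at 72 hr. The control arrays at 72 hr were close together and above all others of that genotype. At 3 hr the difference in control was 0.51 ± 0.21 (limma adjusted p = 0.182), or 0.76 without control 3 hr replicate 1 (limma adjusted p = 0.0303). Over all probe sets, that array had a mean correlation of 0.977 with its own group and 0.981 with other groups. Anxa3 rose 2.08-fold in control by 72 hr (1.06 ± 0.21; limma adjusted p = 0.00633). In Cebpa d/d the difference was 0.58 ± 0.21 (limma adjusted p = 0.142), or 0.82 without 72 hr replicate 1 (limma adjusted p = 0.0228).

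The array labelled Cebpa d/d 72 hr replicate 1 stood apart beyond the members. Its Cebpa level of 9.07 was the highest of all Cebpa d/d arrays. Its mean club cell marker level was 12.18, against 11.56 and 11.72 in replicates 2 and 3, and its mean macrophage marker level was 7.09, against 7.88 and 7.72. Without that array, 7 members rose from 0 to 72 hr in Cebpa d/d, and 5 with it. Between 3 and 72 hr, 5 rose and 1 fell without it, against 1 and 1 with it. With it, 4.8% of all genes passed from 0 to 72 hr and 8.55% from 3 to 72 hr. The shares without it are not given here, so a shift of the members is not told from a shift over all genes. Of 7 macrophage markers 6 were measured, and from 0 to 72 hr 0 of them passed by limma in Cebpa d/d (1 was higher at an unadjusted p under 0.05), while 3 rose in control. Of all genes, 4.8% passed in Cebpa d/d and 7.15% in control. The mean level of the macrophage markers at 72 hr was 7.09 to 7.88 in Cebpa d/d and 7.81 to 8.35 in control. At 0 hr it was 7.16 to 7.28 in Cebpa d/d and 6.98 to 7.16 in control, so the times overlapped in Cebpa d/d and not in control. Among them Cd68 was at 8.06 to 9.01 in Cebpa d/d and 9.05 to 9.17 in control at 72 hr, while Marco lay between 6.12 and 6.88 in all 18 arrays. The part of macrophage RNA in the rise of the members was not tested.

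**Figure D2:**
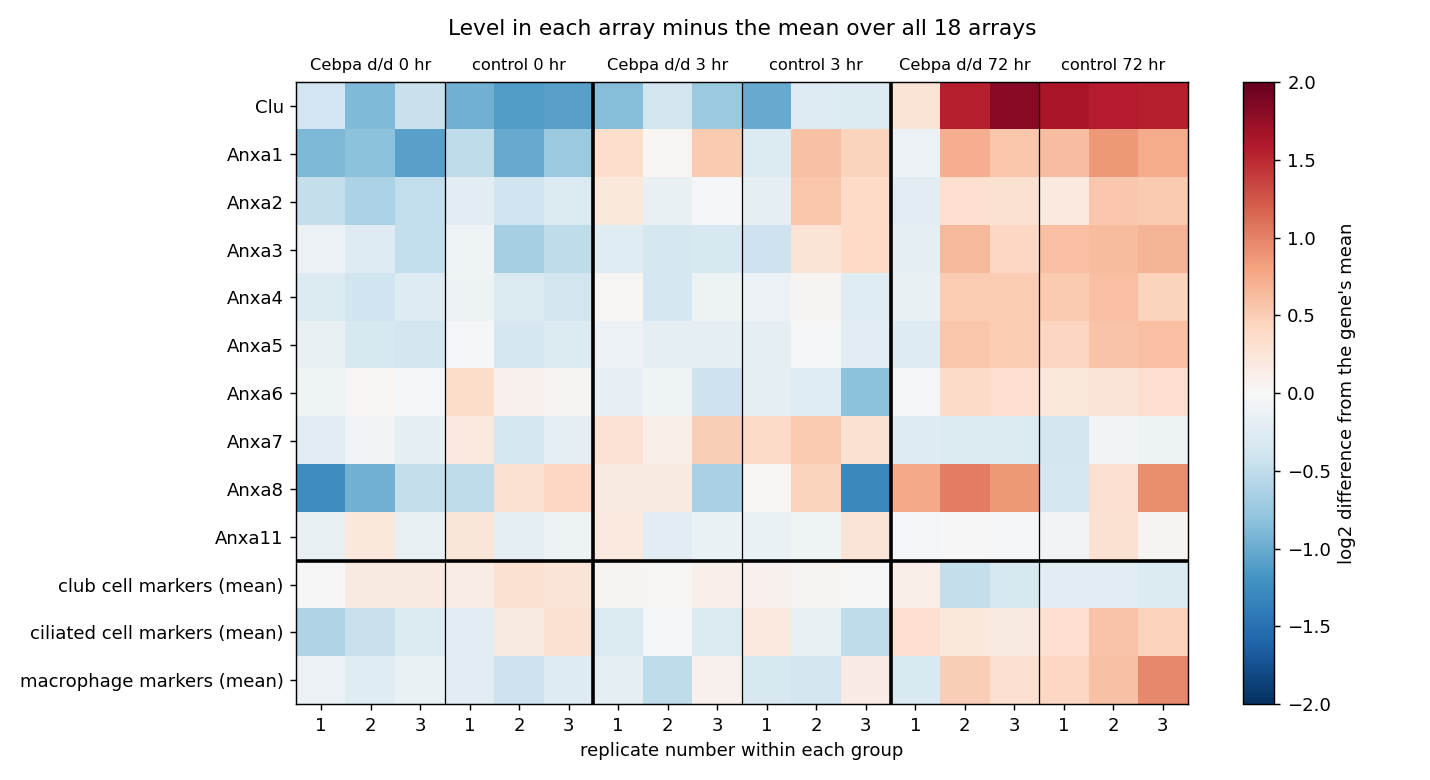
Log2 level of each member, and of the mean of club, ciliated and macrophage markers, in each array (columns, by group and replicate number) minus its mean over all 18 arrays, with red above and blue below the mean. In the column of Cebpa d/d 72 hr replicate 1, Clu is paler than in replicates 2 and 3, and the mean macrophage marker level there is 7.09.

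Anxa6 and Anxa7 passed against 0 hr in control at 3 hr but not at 72 hr. Anxa7, a calcium-dependent membrane fusion protein, had levels in Cebpa d/d arrays of 7.70, 7.85 and 7.73 at 0 hr, 8.19, 8.04 and 8.39 at 3 hr, and 7.65, 7.63 and 7.61 at 72 hr. In control arrays it had 8.11, 7.55 and 7.73 at 0 hr, 8.30, 8.44 and 8.21 at 3 hr, and 7.53, 7.85 and 7.81 at 72 hr. The arrays at 3 hr were the highest in both genotypes and did not overlap those at 0 or 72 hr.

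The 3 hr difference of Anxa7 from 0 hr was 0.45 ± 0.13 in Cebpa d/d (limma adjusted p = 0.0614) and 0.52 ± 0.13 in control, where it passed (limma adjusted p = 0.0385). Anxa7 then fell from 3 to 72 hr, by 0.58 ± 0.13 in Cebpa d/d (limma adjusted p = 0.0115) and by 0.58 ± 0.13 in control (limma adjusted p = 0.00558). The fall in Cebpa d/d was lost without 3 hr replicate 3 of that genotype (-0.48; limma adjusted p = 0.0679) and with sex as a covariate (-0.53; limma adjusted p = 0.052). The 3 hr rise in control was lost under the replicate block (limma adjusted p = 0.0623), with arrays centred on their median (0.49; limma adjusted p = 0.0934), with only the 2 groups in the fit (limma adjusted p = 0.219), and without control 0 hr replicate 2 (0.40), control 0 hr replicate 3 (0.49), control 3 hr replicate 2 (0.46) or control 3 hr replicate 3 (0.57). It also narrowly missed the threshold without Cebpa d/d 3 hr replicate 1, Cebpa d/d 72 hr replicate 2 or Cebpa d/d 72 hr replicate 3 (limma adjusted p = 0.0509, 0.0506 and 0.0527).

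Anxa6, the largest protein of the annexin family, had levels in Cebpa d/d arrays of 9.97, 10.07 and 10.03 at 0 hr, 9.90, 9.96 and 9.65 at 3 hr, and 10.03, 10.43 and 10.39 at 72 hr. In control arrays it had 10.42, 10.13 and 10.11 at 0 hr, 9.86, 9.81 and 9.23 at 3 hr, and 10.28, 10.31 and 10.39 at 72 hr. The lowest value in control was that of 3 hr replicate 3. At 3 hr Anxa6 was lower than at 0 hr by 0.59 in control, a log2 difference of -0.59 ± 0.15 (limma adjusted p = 0.0423), and the difference in Cebpa d/d was -0.19 ± 0.15 (limma adjusted p = 0.589). The control call was lost without control 0 hr replicate 1 (-0.49), control 3 hr replicate 3 (-0.39), control 0 hr replicate 2 or 3, or control 3 hr replicate 2 (-0.63 to -0.67). It was also lost, with the same difference and an adjusted p up to 0.0551, without any array of control at 72 hr, any array of Cebpa d/d at 0 hr, or replicate 1 of Cebpa d/d at 3 hr or replicate 3 at 72 hr. The call was lost at that difference too under the replicate block (limma adjusted p = 0.0524), with sex as a covariate (limma adjusted p = 0.0533) and with only the 2 groups in the fit (limma adjusted p = 0.235). Array weights gave -0.42 (limma adjusted p = 0.0655), arrays centred on their median -0.62 (limma adjusted p = 0.0606), and leaving out the array that went against its label together with Cebpa d/d 72 hr replicate 1 gave -0.49 (limma adjusted p = 0.112). Anxa6 rose again from 3 to 72 hr in control, by 0.69 (limma adjusted p = 0.0048), and the difference in Cebpa d/d was 0.45 (limma adjusted p = 0.0774). The second probe set of Anxa6 ran the other way in control, with means of 6.33 at 72 hr and 6.65 at 3 hr, and both Anxa6 calls were lost with the mean of its probe sets (limma adjusted p = 0.174 and 0.134).

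**Figure D3:**
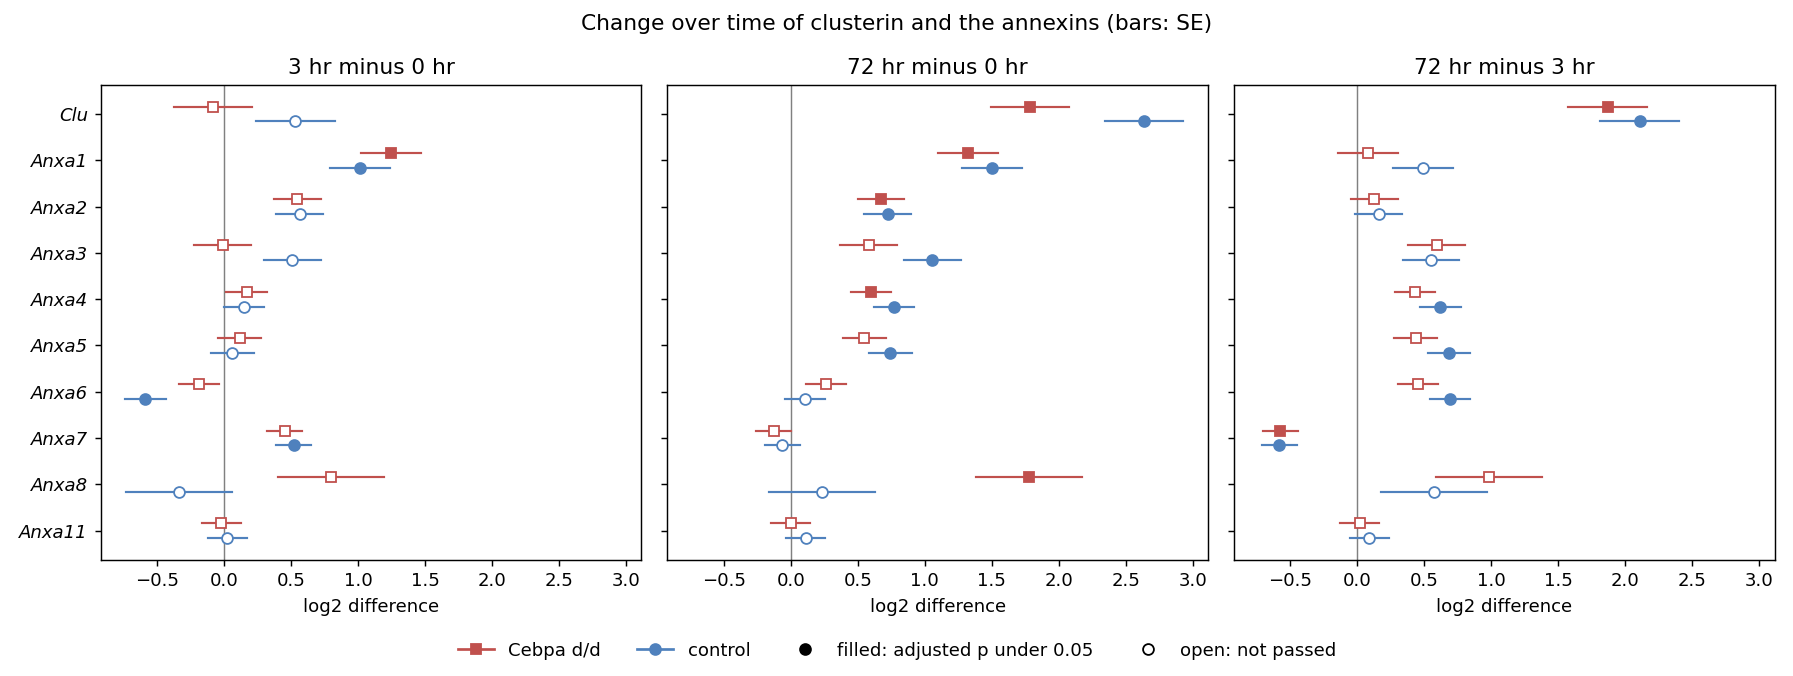
Log2 difference between times (horizontal axis) for each member, with squares for Cebpa d/d, circles for control, bars for the SE, and filled symbols where the limma adjusted p was under 0.05. From 0 to 72 hr, 5 members in Cebpa d/d and 6 in control have filled symbols to the right of 0, with Clu farthest to the right in control at 2.64.

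Anxa8, known from skin and other stratified epithelium, was the annexin with the widest range of group means. Its levels in Cebpa d/d arrays were 7.79, 8.07 and 8.55 at 0 hr, 9.20, 9.20 and 8.38 at 3 hr, and 9.78, 10.05 and 9.90 at 72 hr. In control arrays they were 8.51, 9.32 and 9.44 at 0 hr, 9.06, 9.47 and 7.73 at 3 hr, and 8.69, 9.34 and 9.95 at 72 hr. In Cebpa d/d the 72 hr arrays were clear of the 0 hr arrays, whereas the control arrays of all times overlapped.

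Anxa8 rose 3.42-fold from 0 to 72 hr in Cebpa d/d (1.77 ± 0.39; limma adjusted p = 0.0139), and the difference in control was 0.23 ± 0.39 (limma adjusted p = 0.792). The difference between these changes was 1.54 ± 0.56 with a 95% interval of 0.36 to 2.72, and it did not pass over all genes (limma adjusted p = 0.909). The rise in Cebpa d/d was lost with sex as a covariate (1.53; limma adjusted p = 0.0757), and without Cebpa d/d 0 hr replicate 1 (1.60), 0 hr replicate 2 (1.74), 72 hr replicate 2 (1.70) or 72 hr replicate 3 (1.78). At 0 hr Anxa8 lay lower in Cebpa d/d by 0.96, with an interval of -1.79 to -0.12, and this did not pass either (limma adjusted p = 0.511). Without the array labelled control 0 hr replicate 1 that difference was -1.25, and it did not pass.

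From 0 to 72 hr, 3 of 7 markers of ciliated cells rose in Cebpa d/d and 1 of 7 in control. Of all genes, 4.8% passed in Cebpa d/d and 7.15% in control, in either direction. The mean of all 7 ciliated cell markers was 8.18, 8.34 and 8.52 in Cebpa d/d arrays at 0 hr, 8.50, 8.76 and 8.50 at 3 hr, and 9.13, 8.99 and 8.97 at 72 hr. In control arrays it was 8.57, 8.97 and 9.08 at 0 hr, 8.99, 8.63 and 8.28 at 3 hr, and 9.12, 9.35 and 9.24 at 72 hr. As with Anxa8, the lowest control array at 0 hr was replicate 1 and the lowest at 3 hr was replicate 3. At 72 hr the marker mean was lower in Cebpa d/d (8.97 to 9.13) than in control (9.12 to 9.35) but for a small overlap. Mean Anxa8 was 9.91 in Cebpa d/d and 9.33 in control. Within Cebpa d/d at 72 hr, replicate 1 had the highest marker mean and the lowest Anxa8. All 7 markers had differences above 0 from 0 to 72 hr in both genotypes, with medians of 0.70 in Cebpa d/d and 0.26 in control. Among them Foxj1, the master regulator of motile cilia, lay between 6.95 and 7.75 over all arrays. The part of ciliated cells in the levels of Anxa8 was not tested.

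By the root mean square distance between 6 centred group means, the genes likest to Anxa8 were Mcm6 (0.19 log2 units), Cfap57 (0.23), Dnah6 (0.23), Adgb (0.23) and Wdr63 (0.24). The genes likest to Clu by the same measure were Wfdc3 (0.24), Nuf2 (0.26), Ckap2 (0.27), Ect2 (0.28) and Pbk (0.28). Nuf2, for example, had mean levels of 7.38 in Cebpa d/d and 7.53 in control at 72 hr, and between 5.50 and 5.72 in the other 4 groups. Among the members themselves, Anxa4 and Anxa5 were the nearest pair, at a distance of 0.03, while the nearest member to Clu was Anxa3 at 0.67. These distances rest on the same 18 arrays and are given without a test.

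Anxa11, which links RNA granules to lysosomes, had the narrowest range. Its levels lay between 6.73 and 7.15 in the 9 Cebpa d/d arrays and between 6.77 and 7.25 in the 9 control arrays. Its group means spanned 0.15, and 9.01% of all genes spanned less. It passed in no comparison, and its 72 hr difference from 0 hr was -0.0022 ± 0.15 in Cebpa d/d (95% interval -0.31 to 0.30) and 0.11 ± 0.15 in control (-0.20 to 0.42).

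The members were chosen with earlier results of these data known, so their counts are a description and not a test of the set. Counted over the 10 members, 1 rose and 0 fell from 0 to 3 hr in Cebpa d/d, where 4.38% of all genes passed in either direction. In control 2 rose and 1 fell, where 3.5% of all genes passed. From 0 to 72 hr, 5 rose in Cebpa d/d and 6 in control and 0 fell, where 4.8% of all genes passed in Cebpa d/d and 7.15% in control. From 3 to 72 hr, 1 rose and 1 fell in Cebpa d/d and 4 rose and 1 fell in control, where 8.55% and 19.7% of all genes passed. The median difference of the members from 0 to 72 hr was 0.59 in Cebpa d/d and 0.73 in control, beside medians over all genes of -0.02 and -0.02. At 3 hr their median was 0.14 in Cebpa d/d and 0.33 in control, beside -0.02 and 0.03. At an unadjusted p under 0.05, limma also gave 0 members lower at 72 hr in both genotypes and at 3 hr in Cebpa d/d.

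The comparison of genotypes asked whether these levels differed with the Cebpa d/d genotype. None of the 10 members passed by limma at 0, 3 or 72 hr or as a mean over the 3 times, where 0.336%, 0.015%, 0.0702% and 0.306% of all genes passed. Cebpa itself passed as a mean over the 3 times (-1.58; limma adjusted p = 0.00953). Its differences at 0, 3 and 72 hr were -1.31, -2.14 and -1.28 and did not pass (limma adjusted p = 0.309, 0.152 and 0.609). A member that did not pass at a single time was therefore not shown to be unchanged. At an unadjusted p under 0.05, 1 member (Anxa8) differed at 0 hr and 1 (Anxa2) as a mean over the 3 times. The mean difference of Anxa2 was -0.25, with a 95% interval of -0.46 to -0.04 (limma adjusted p = 0.457), and it was lower in Cebpa d/d at each time.

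At 72 hr 1 of the 10 differences was above 0, that of Anxa8, and their median was -0.25, beside 0.02 over all genes. Without the array labelled Cebpa d/d 72 hr replicate 1, 3 of the 10 were above 0 and the median was -0.05. Clu differed by -0.37 at that time, with an interval of -0.99 to 0.25, and by 0.10 without that array. Anxa1 differed by -0.36, with an interval of -0.83 to 0.11, and by -0.11 without it. With all arrays both intervals include differences larger than 1.5-fold, so equal levels were not shown. At 0 hr the 3 Clu arrays of Cebpa d/d (9.44 to 9.95) lay above those of control (9.22 to 9.37), with a difference of 0.48 and an interval of -0.14 to 1.10 (limma adjusted p = 0.699). The arrays did not overlap in 11.4% of all genes at 0 hr. Those of Anxa2 (-0.23) and Anxa6 (-0.20) did not overlap either, with lower levels in Cebpa d/d. Neither difference passed (limma adjusted p = 0.783 for each). Mean levels of 7 heart muscle markers at 0 hr were 9.95 to 10.93 in Cebpa d/d arrays and 7.64 to 8.90 in control arrays. In Cebpa d/d they were 7.87 to 8.29 at 3 hr and 7.50 to 7.88 at 72 hr. The 0 hr arrays of Cebpa d/d enter every change from 0 hr in that genotype, the interactions and the genotype differences at 0 hr. The part of heart muscle RNA in any of them, the Clu difference included, was not tested.

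The change of Clu from 0 to 72 hr was smaller in Cebpa d/d than in control by 0.85, with an interval of -1.73 to 0.03, and this difference of changes did not pass (limma adjusted p = 1). Without Cebpa d/d 72 hr replicate 1 the difference of changes was -0.38, and over all single arrays left out it lay between -1.15 and -0.38. No member passed by limma in this interaction, where 0.0953% of all genes passed, or in that of 3 hr, where 0% did. At an unadjusted p under 0.05, Anxa8 was the member that differed in the 72 hr interaction.

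**Figure D4:**
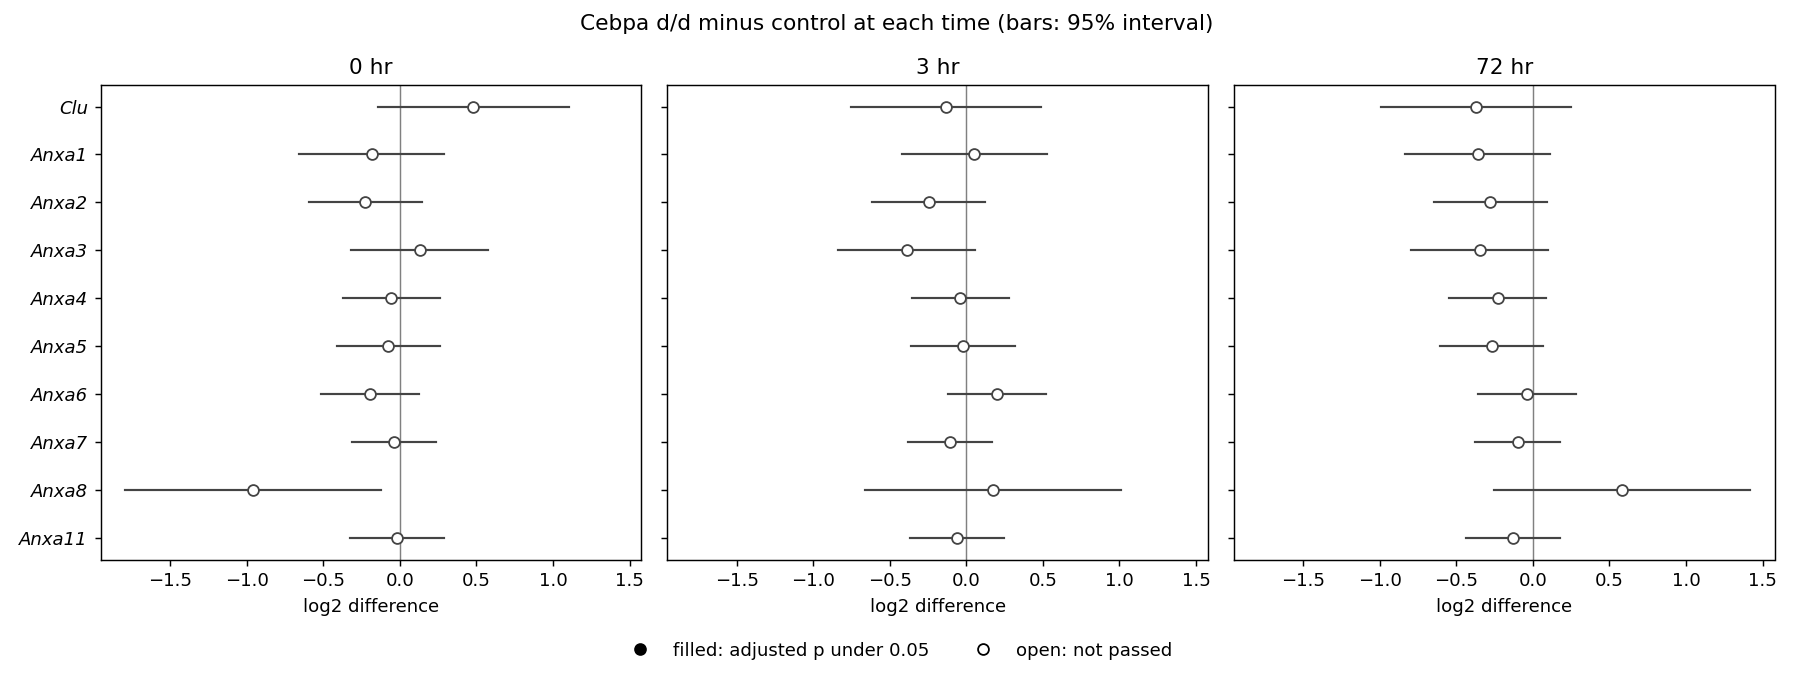
Log2 difference of Cebpa d/d minus control (horizontal axis) for each member at 0, 3 and 72 hr, with bars for the 95% interval and open symbols because no difference passed. At 72 hr 9 of the 10 points lie below 0, or 7 of 10 without Cebpa d/d 72 hr replicate 1, and at 0 hr the interval of Anxa8 runs from -1.79 to -0.12.

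The other annexins were at low level. Anxa9, Anxa10 and Anxa13 lay between 4.75 and 5.65 in all arrays, and Anxa13 rose by 0.40 from 0 to 72 hr in control (limma adjusted p = 0.0473), which was the 1 call among them. Its difference in Cebpa d/d was 0.37 (limma adjusted p = 0.0831). Of 8 S100 genes, whose proteins bind annexins or calcium, 3 rose and 0 fell from 0 to 72 hr in Cebpa d/d, and 5 rose and 0 fell in control. Of all genes, 4.8% passed in Cebpa d/d and 7.15% in control, in either direction. At an unadjusted p under 0.05 limma gave 6 higher and 0 lower in Cebpa d/d, and 7 higher and 0 lower in control. The unadjusted share over all genes is not given here. S100a6, a partner of Anxa2 and Anxa11, rose by 0.96 in Cebpa d/d (limma adjusted p = 0.0109) and by 1.38 in control (limma adjusted p = 0.000984). It had also risen at 3 hr, by 0.75 in Cebpa d/d (limma adjusted p = 0.0472) and by 0.88 in control (limma adjusted p = 0.0269).

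S100b rose too at 72 hr, by 0.60 in Cebpa d/d (limma adjusted p = 0.0429) and by 0.97 in control (limma adjusted p = 0.00227). S100a4, which macrophages and fibroblasts also express, rose by 1.499 in control (limma adjusted p = 0.00158), and its difference of 0.68 in Cebpa d/d did not pass (limma adjusted p = 0.132). S100a10, the direct partner of Anxa2, is outside the rule for naming list genes and is named after its values were seen. It had levels in Cebpa d/d of 10.38, 10.30 and 9.61 at 0 hr and 9.98, 10.79 and 10.64 at 72 hr. In control it had 10.19, 9.93 and 10.14 at 0 hr and 10.77, 10.97 and 11.31 at 72 hr. Its 72 hr difference was 0.37 in Cebpa d/d and 0.93 in control, and neither passed (limma adjusted p = 0.567 and 0.0609).

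Of the plasminogen system that Anxa2 serves, 7 of 10 listed genes were measured. Plaur, the urokinase receptor, rose at 3 hr by 1.80 ± 0.43 in Cebpa d/d (limma adjusted p = 0.0229) and by 1.83 ± 0.43 in control (limma adjusted p = 0.0272). From 3 to 72 hr it fell by 1.53 in Cebpa d/d and by 1.46 in control (limma adjusted p = 0.0356 and 0.0248). At 3 hr control replicate 1 was at 7.24, against 9.41 and 9.17 in replicates 2 and 3, the same array that was low for Clu and Anxa1 to Anxa3. Plgrkt, a plasminogen receptor, rose from 3 to 72 hr in control by 1.11 (limma adjusted p = 0.00245), with a difference of 0.68 in Cebpa d/d (limma adjusted p = 0.0697).

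Of 5 genes listed for receptors of Anxa1, 2 were measured (Fpr-rs3 and Fpr-rs4), and 0 passed by limma in any comparison, also at an unadjusted p under 0.05. Both lay below the lowest median of an array (6.48), with Fpr-rs3 at 5.71 to 6.39 and Fpr-rs4 at 3.81 to 4.10. The other listed genes were not measured, so whether receptors of Anxa1 changed was not shown. Of 6 measured clusterin receptors, Lrp8 rose at 3 hr by 0.41 in Cebpa d/d (limma adjusted p = 0.00792) and by 0.57 in control (limma adjusted p = 0.00133). It fell again by 72 hr, by 0.31 in Cebpa d/d and by 0.50 in control (limma adjusted p = 0.0252 and 0.000667). Of the other receptors, Lrp1 rose from 3 to 72 hr in control by 0.52 (limma adjusted p = 0.0199), with a difference of 0.32 in Cebpa d/d (limma adjusted p = 0.21).

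Among 25 other genes of plasma membrane repair, 2 rose from 0 to 72 hr in Cebpa d/d and 3 in control, and 0 fell, beside 4.8% and 7.15% of all genes that passed. At an unadjusted p under 0.05 limma gave 1 lower in each genotype. Capn2, a calcium-activated protease, rose by 0.48 in Cebpa d/d (limma adjusted p = 0.0103) and by 0.36 in control (limma adjusted p = 0.044). Pdcd6, a calcium sensor that recruits repair proteins, rose by 0.38 in Cebpa d/d (limma adjusted p = 0.0104) and by 0.31 in control (limma adjusted p = 0.0286). Smpd1, the acid sphingomyelinase, rose by 0.47 in control (limma adjusted p = 0.042), and its difference in Cebpa d/d was 0.19 (limma adjusted p = 0.501). The list's median difference was 0.06 in Cebpa d/d and 0.11 in control.

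Of genes that mark epithelium in transition after injury, 22 were measured. From 0 to 3 hr 7 rose and 1 fell in Cebpa d/d, and 7 rose and 0 fell in control, where limma also gave 0 lower at an unadjusted p under 0.05. The shares of all genes that passed were 4.38% in Cebpa d/d and 3.5% in control. At 72 hr 6 rose and 1 fell in Cebpa d/d, and 9 rose and 1 fell in control, beside 4.8% and 7.15% of all genes. Krt19, a keratin of simple epithelium, rose by 1.47 from 0 to 72 hr in Cebpa d/d (limma adjusted p = 0.00124) and by 1.26 in control (limma adjusted p = 0.00401). Lgals3, a lectin that macrophages also make, rose by 1.14 in Cebpa d/d (limma adjusted p = 0.0211) and by 1.87 in control (limma adjusted p = 0.000866). The gene that fell in Cebpa d/d was Ankrd1, which heart muscle expresses (-2.09 from 0 to 72 hr; limma adjusted p = 0.00401), in the genotype whose 0 hr arrays had the high heart muscle markers given above. The list's median from 0 to 72 hr was 0.46 in Cebpa d/d and 0.63 in control.

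Among heat shock genes and other known inducers of Clu, 16 were measured. From 0 to 3 hr, when Clu did not pass, 5 of the 16 rose and 0 fell in Cebpa d/d, and 7 rose and 0 fell in control, beside 4.38% and 3.5% of all genes that passed in either direction. Unadjusted, limma gave 0 lower in Cebpa d/d and 1 lower in control at p under 0.05. Egr1, an immediate early transcription factor, rose by 2.71 in Cebpa d/d (limma adjusted p = 1.51e-05) and by 2.51 in control (limma adjusted p = 6.15e-05). Dnajb1, a co-chaperone of the heat shock response, rose by 2.15 in Cebpa d/d (limma adjusted p = 0.00027) and by 1.44 in control (limma adjusted p = 0.0125). Hspa1a, the inducible heat shock protein, rose by 2.27 in Cebpa d/d (limma adjusted p = 0.00159) and by 2.79 in control (limma adjusted p = 0.000546).

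From 3 to 72 hr, 10 of these genes fell and 0 rose in Cebpa d/d (0 also at an unadjusted p under 0.05 by limma), and 11 fell and 1 rose in control. Of all genes, 8.55% passed in Cebpa d/d and 19.7% in control, in either direction. From 0 to 72 hr 0 passed by limma in either genotype, beside 4.8% of all genes in Cebpa d/d and 7.15% in control. The medians of the list were -0.12 in Cebpa d/d and -0.07 in control. At an unadjusted p under 0.05, 3 were lower and 0 higher in Cebpa d/d, and 2 were lower and 2 higher in control. Clu was highest at 72 hr, as given above. Time changes within a genotype share arrays, so these comparisons are set side by side and not tested against each other.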

How the data were processed

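Total RNA was measured on 18 Affymetrix Mouse Gene ST arrays with biotin-labelled target. The authors deposited log2 values from RMA (background correction, normalization between arrays and 1 summary value per probe set), as the submitters' processing notes name it. Its version, the genome build and any filter are not given in the sources used here. The number of arrays limits the precision.

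Of 35557 probe sets, 21789 had 1 symbol in the platform annotation, and the probe set with the highest mean per gene gave 19938 genes. In R 4.3.3, limma 3.58.1 fitted the 6 group means to all 18 arrays (12 residual degrees of freedom, to which moderation added 4.49). The 12 contrasts were the genotype differences, time differences and interactions, with Benjamini-Hochberg adjustment over all genes and a threshold of 0.05. The fit was tested on simulated data. The members and the lists of other genes were chosen with earlier results of these data known. All members were named, and from each list up to 4 genes with the smallest adjusted p in a contrast.

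Alternatives were: a filter on genes under the median level, averaging a gene's probe sets, trend and robust moderation, array weights, replicate number as a block, arrays centred on their medians, sex as a covariate, only the groups of a contrast, another call rule, and leaving out arrays. The replicate numbers did not pair arrays: deviations of same-numbered arrays of the 2 genotypes correlated between -0.283 and 0.199.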

Additional observations from a re-analysis of the deposited data

How the results depend on the processing

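Of 120 values of a member in a contrast, 22 passed. Over the alternatives, 62 of 594 recomputed values of these lost the call and 0 turned sign, while 38 of 2636 recomputed values of the others gained a call. All 129 turns of sign were among values that had not passed. The cause of these shifts was not tested. The share of all genes that passed under each alternative is not given here. The counts below therefore do not tell a shift of the members from a shift in calls over all genes. In control, the 3 members that passed at 3 hr against 0 hr became 1 under the replicate block, 1 with each array centred on its median and 0 with only the groups of the contrast; leaving out single arrays gave 0 to 5. In Cebpa d/d at 3 hr the count of 1 became 2 without genes below the median level, 3 with array weights, 2 without both doubted arrays (replicate 1 of control at 0 hr and of Cebpa d/d at 72 hr), and 2 with only the groups of the contrast (1 to 2 without single arrays). For 72 hr against 0 hr in Cebpa d/d the count of 5 became 2 with sex as a covariate and 3 with only the groups of the contrast (2 to 7 without single arrays). For 72 hr against 3 hr in Cebpa d/d the count of 2 became 7 with array weights, 1 with sex as a covariate and 6 without both arrays (1 to 6 without single arrays). Counts in the other contrasts stayed within 1.5 times, except that the rule of an unadjusted p under 0.05 with a 1.5-fold change gave 1 member for the genotypes at 0 hr and 1 for the 72 hr interaction, against 0 each. In control, 72 hr against 0 hr gave 5 to 6 and 72 hr against 3 hr gave 5 to 6 without single arrays. The replicate numbers did not pair the arrays, and the replicate block is given for completeness. The only-groups alternative has no value for the mean over 3 times, which uses all groups.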
